A study of Mus musculus with 12 samples.

Results

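Transcripts of the lysosome, of the vacuolar proton pump (V-ATPase) and of autophagy were followed through activation of mouse CD8 T cells, loss of Tmed10 and treatment with AGN192403. The 50 genes were taken from a written list of lysosomal hydrolases and membrane proteins, V-ATPase subunits, autophagy genes, the TFEB family of transcription factors and the sorting receptor gene Igf2r. The list was chosen with earlier results of these data known, so shares of members called are descriptive. Each symbol matched 1 identifier among the 46603 of the count table. Expression was high enough for testing in 13167 genes, of which 49 were members. Mitf was not tested.

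The study asked how the p24 cargo receptor TMED10 governs the inhibitory receptor PD-1 in T cells. CD8 T cells came from spleens of OT-I/Cas9 mice, which carry a transgenic T cell receptor for an ovalbumin peptide and express Cas9. They were first stimulated through CD3 and CD28, received guides by retrovirus and were kept under puromycin with IL-2, IL-7 and IL-15, so each group was a selected mixed population and not a clone. RNA was counted in 12 libraries, 2 for each of 6 groups. Control-guide cells in water as vehicle, control-guide cells in 100 µM AGN192403 and Tmed10-guide cells in vehicle were each sampled resting and activated. Activation was a 24 h culture on plate-bound antibody to CD3 at 2.5 µg/mL, and resting cells were not restimulated. AGN192403, an imidazoline receptor ligand that the study used against TMED proteins, was given to control-guide cells and not to knockout cells. The labels do not state that replicates were separate cultures or mice, so p-values may measure technical spread alone. In bulk RNA, fewer cells of a type and less RNA per cell cannot be told apart.

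Lysosomes degrade proteins, lipids and glycans with hydrolases that work at low pH, and the V-ATPase keeps that pH by pumping protons through its membrane V0 sector with ATP hydrolysed by its cytosolic V1 sector. Autophagy wraps cytoplasm in a membrane, marked by lipid-bound proteins of the ATG8 family, and delivers it to lysosomes. TFEB, TFE3 and MITF are basic helix-loop-helix factors that switch on genes of this system by binding E-box motifs, and the kinase mTORC1, which T cell receptor signals activate, holds TFEB in the cytoplasm.

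The CLEAR element bound by the TFEB family has the core TCACGTGA, which contains the E-box CACGTG. Promoters running from 250 bases before to 50 bases after the RefSeq start site (GRCm38.p6) were at hand for 40 of the 50 members, with 49 promoters among them. On either strand, the CLEAR core stood in 8 of these 49 (16.3%), against 0.974% of all 32851 promoters and 1.92% of those of tested genes. The E-box stood in 30.6% of members' promoters, 7.15% of all promoters and 10% of those of tested genes. TGATGNAA is a letter pattern of ATF4 and CEBP sites. It was present in 4.08% of members' promoters, 3.97% of all promoters and 2.27% of those of tested genes. TGACNNNGC, the core of the antioxidant response element, was present in 16.3%, 12.4% and 14.5%. None of these shares was tested, and the members were picked as genes of the system that the TFEB family switches on. Windows of 30 bases are shown for 6 of the 8 genes with the CLEAR core, namely those called in a comparison of perturbed with control cells below, and Mcoln1, which was called in none. Capitals mark the core, and each window is read along the gene's strand.
Atp6v0d1, chr8:105566050-105566079, minus strand: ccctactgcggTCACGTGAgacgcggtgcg
Igf2r, chr17:12769737-12769766, minus strand: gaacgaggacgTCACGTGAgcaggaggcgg
Gla, chrX:134601215-134601244, minus strand: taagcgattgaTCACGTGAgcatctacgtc
Ctsd, chr7:142387908-142387937, minus strand: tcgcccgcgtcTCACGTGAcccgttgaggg
Ctsa, chr2:164833749-164833778, plus strand: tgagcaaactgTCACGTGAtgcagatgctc
Mcoln1, chr8:3500462-3500491, plus strand: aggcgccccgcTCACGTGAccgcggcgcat
The other genes with the core were Atp6v1a and Atp6v0e, and Igf2r, Gla and Ctsa each held a second copy. A match describes the letters of a promoter and is not evidence of binding.

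Library totals ran from 9089350 to 16481840 counts, with a median of 12192220.5. Tmed10 stood at 55.9 to 65.1 CPM (TMM-scaled counts as a share of the library) in the 4 knockout libraries and at 116 to 144 CPM in the other 8. The 10 CD8 T cell markers summed to between 4020 and 5589 CPM in every library. The 10 markers of macrophages and monocytes, cells rich in lysosomes, summed to between 0.189 and 2.65 CPM, with C1qa and C1qb among those at 0 throughout. The sum was higher in resting than in activated groups, with means of 1.93 and 0.334 CPM in control cells, and its part in the activation results below was not tested. Dendritic cell markers reached at most 2.65 CPM and B cell markers 8.08 CPM, also highest at rest. Replicates of activated AGN192403 cells were the least alike, with a chi-square per degree of freedom over Poisson counting of 3.86, against 1.13 to 2.24 in the other groups.

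Per kilobase of exon, members' levels spanned a wide range in resting control cells. Ctsd, the gene of the aspartic protease cathepsin D, was the most abundant at 392 CPM per kb, followed by Psap, the precursor of the saposin activators, at 167, and by Gabarap, an ATG8 family gene, at 103. Lamp1, a major glycoprotein of the lysosomal membrane, stood at 85.0 CPM per kb and its relative Lamp2 at 9.84. The V0 subunit Atp6v0d1 and the V1 subunit Atp6v1f were level at 50.9 CPM per kb. Atp6v0a1 stood at 4.59 and the proteolipid gene Atp6v0c at 3.59. The pseudogene Atp6v0c-ps2 was at 0.283 to 0.75 CPM over all libraries, and its bearing on the count of Atp6v0c was not tested. Of the transcription factors, Tfe3 reached 3.80 and Tfeb 2.53 CPM per kb, and Mitf was at 0.0589. Mitf ranged from 0.168 to 0.982 CPM over the 12 libraries. Ctsl, of the cysteine protease cathepsin L, was the lowest tested member at 0.236 CPM per kb. In GRCm38, the genes the results turn on most are Sqstm1 (ENSMUSG00000015837) at chr11:50199366-50210827 on the minus strand, Gabarap (ENSMUSG00000018567) at chr11:69991143-69994951 on the plus strand, Atp6v1h (ENSMUSG00000033793) at chr1:5070018-5162529 on the plus strand, Igf2r (ENSMUSG00000023830) at chr17:12682406-12769664 on the minus strand and Gla (ENSMUSG00000031266) at chrX:134588149-134601125 on the minus strand.

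**Figure D1:**
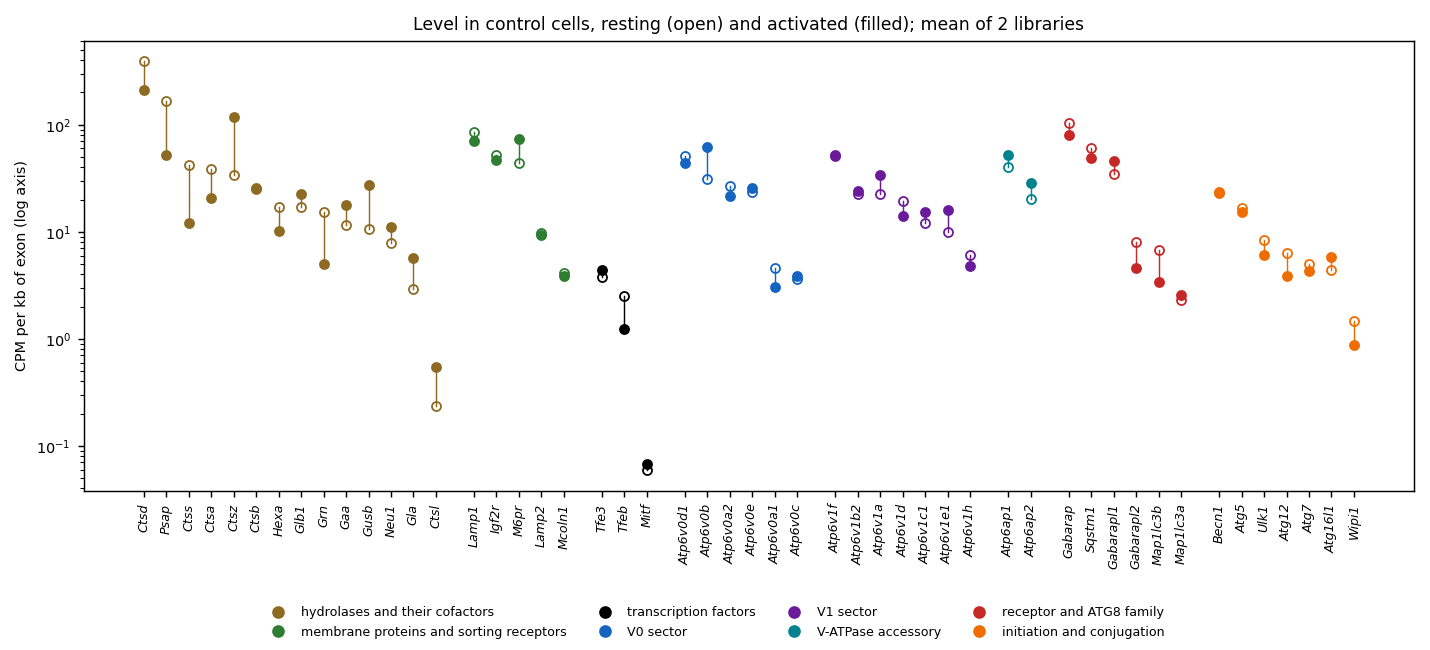
Level of each of the 50 members in CPM per kb of exon (log axis) in control cells, as the mean of 2 libraries, open for resting and filled for activated cells and coloured by role. Ctsd leads at rest at 392 CPM per kb and Mitf is lowest at 0.0589, and the lines of Ctss, Psap and Grn point down while that of Ctsz points up.

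Activation of control cells is the reference for the perturbations. It moved most members and split the hydrolases: Ctsz, Gusb and Gla rose, while Ctss, Psap and Grn fell. Transcripts of 18 of the 49 tested members rose and 22 fell by edgeR's quasi-likelihood test with Benjamini-Hochberg adjustment over all genes, where 36.4% of all tested genes rose and 37.4% fell. The median log2 fold change of members was −0.07, and that of all genes −0.018. Of these 40 calls, 37 held under every alternative analysis.

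Among the 14 hydrolases and cofactors, 7 (50%) rose and 6 (42.9%) fell, against 36.4% and 37.4% of all tested genes. Ctsz, of the exopeptidase cathepsin Z, was at 46.5 and 50.3 CPM in resting and 167 and 172 CPM in activated libraries, a log2 fold change of 1.80 ± 0.0539 (SE; adjusted p = 5.77e-20). Gusb, the beta-glucuronidase gene, went from 46.9 and 48.6 to 123 and 128 CPM (1.39 ± 0.0545). Gla, which encodes the alpha-galactosidase that clears globotriaosylceramide, went from 9.79 and 9.08 to 18.2 and 18.6 CPM (0.97 ± 0.118). None of these groups overlapped. The share of all tested genes whose groups do not overlap was not counted, so non-overlap here and below only describes the values. Ctsl rose from a low level, 2.00 and 1.06 CPM to 3.33 and 3.78 CPM (1.27 ± 0.269), and by 0.82 without resting control library 2. Gaa, the acid alpha-glucosidase gene, went from 56.4 and 53.6 to 87.1 and 83.5 CPM (0.64 ± 0.0565). The falling side held Ctsd and Psap, the most abundant members per kb at rest. Ctss, of cathepsin S, which trims the invariant chain in antigen-presenting cells, went from 57.8 and 57.4 to 15.8 and 17.2 CPM (−1.80 ± 0.0785). Psap went from 452 and 464 to 141 and 146 CPM (−1.67 ± 0.0414). Grn, of the lysosomal cofactor progranulin, went from 54.5 and 52.1 to 18.1 and 16.5 CPM (−1.62 ± 0.0805). Ctsd dropped from 909 and 932 to 500 and 504 CPM (−0.88 ± 0.0396) and Ctsa, of the protective protein cathepsin A, from 179 and 186 to 96.1 and 98.9 CPM (−0.90 ± 0.0468). The summed level of the 14 genes was 2101 ± 32 CPM (SD, n = 2) at rest and 1465 ± 13.9 CPM after activation.

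The 2 mannose 6-phosphate receptors, which carry new hydrolases from the Golgi to endosomes, moved apart. M6pr, the cation-dependent receptor, rose from 178 and 190 to 302 and 307 CPM (0.72 ± 0.046), while Igf2r, the cation-independent receptor, fell slightly from 487 and 492 to 437 and 439 CPM (−0.16 ± 0.0439). Lamp1 fell from 228 and 227 to 187 and 190 CPM (−0.27 ± 0.0437). Tfeb fell from 15.2 and 13.5 to 7.83 and 6.13 CPM (−1.03 ± 0.137) and Tfe3 rose from 34.4 and 36.1 to 40.8 and 40.9 CPM (0.21 ± 0.0681). Neither gene's groups overlapped, but Tfe3 was no longer called by DESeq2 (0.22, adjusted p = 0.0531) or when resting control library 1 was left out (0.18, adjusted p = 0.0613).

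Of the 15 V-ATPase genes, 7 (46.7%) rose and 5 (33.3%) fell, against 36.4% and 37.4% of all tested genes. The V0 subunit Atp6v0b rose most, from 64.2 and 63.1 to 128 and 127 CPM (1.01 ± 0.0505), followed by the V1 subunits Atp6v1e1, at 41.6 and 40.8 against 65.2 and 64.4 CPM (0.66 ± 0.0706), and Atp6v1a, the catalytic subunit (0.60 ± 0.0482). The accessory genes Atp6ap1 and Atp6ap2 both rose (0.37 and 0.52), and Atp6v0a1 (−0.56) and Atp6v1d (−0.47) fell. Autophagy genes leaned downwards, with 8 of 13 (61.5%) lower and 2 (15.4%) higher, against 37.4% and 36.4% of all tested genes. The ATG8 gene Map1lc3b, which encodes the LC3B protein widely used to follow autophagosomes, fell from 48.9 and 53.2 to 24.4 and 26.7 CPM (−1.0 ± 0.0728). Its relative Gabarapl2, at 19.3 and 17.9 against 10.7 and 10.5 CPM, fell by 0.81 ± 0.108 on the log2 scale, and Wipi1, a phosphoinositide-binding protein of early autophagosomes, by 0.76 ± 0.184. Sqstm1, the gene of the cargo receptor p62, fell slightly, from 201 and 205 to 160 and 171 CPM (−0.29 ± 0.0455). The 2 autophagy genes that rose were Gabarapl1 (0.38) and Atg16l1 (0.39).

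**Figure D2:**
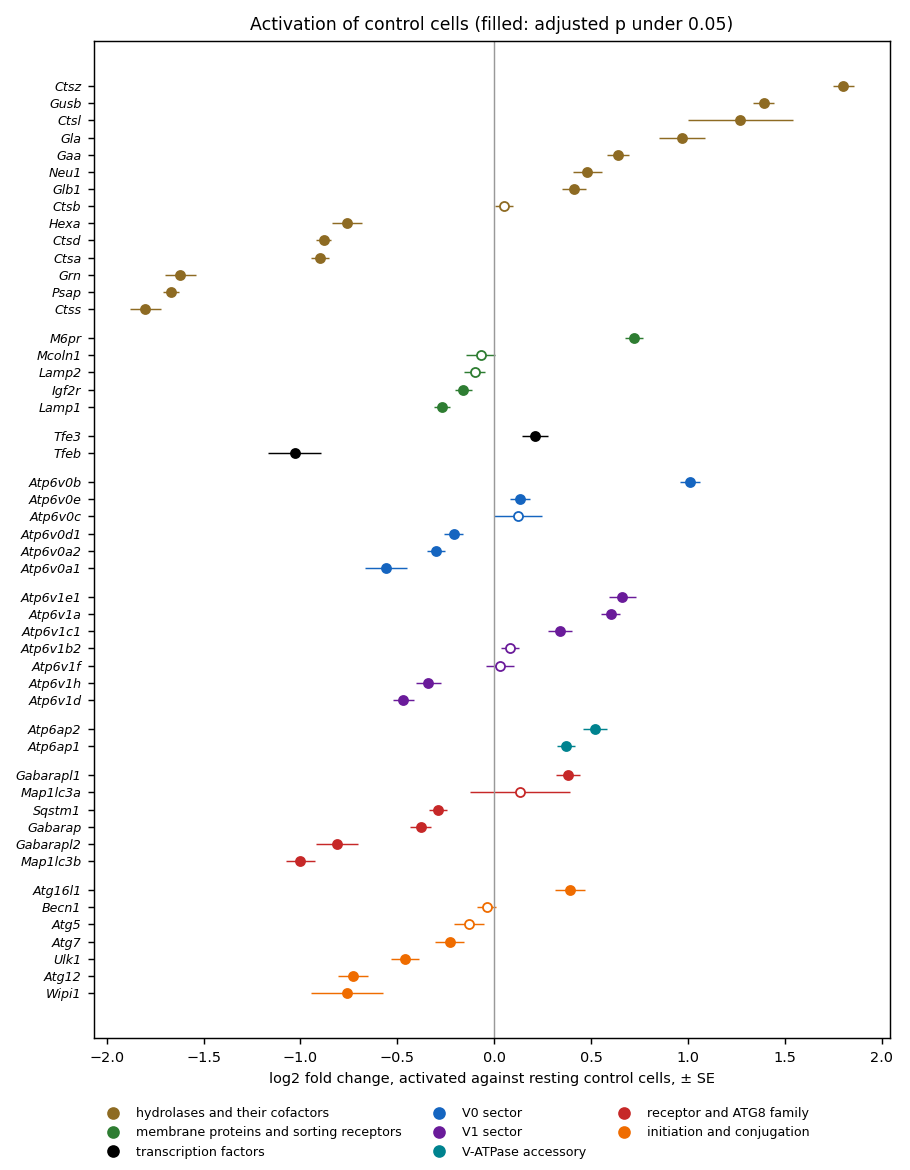
Log2 fold change of the 49 tested members on activation of control cells, with its standard error (n = 2 libraries a group), grouped and coloured by role. Filled points have an adjusted p under 0.05, and hydrolases lie on both sides of 0, from 1.80 for Ctsz to −1.80 for Ctss.

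Resting knockout cells differed little from resting controls in these genes. The comparison asks what loss of TMED10 does before restimulation. Ctsd and Igf2r were lower, and the call rate of 4.08% of members lay near the 4.63% of all tested genes that were lower. No member was called higher, where 2.81% of all genes were; by edgeR 9 members had an unadjusted p under 0.05 in either direction, and DESeq2 also called 2 lower and 0 higher. The median log2 fold change of members was 0.02, and that of all genes 0.00275. Ctsd was at 785 and 787 CPM against 909 and 932 CPM (−0.23 ± 0.039, adjusted p = 0.000394), and this call held under every alternative. Igf2r was at 429 and 436 CPM against 487 and 492 CPM (−0.18 ± 0.044, adjusted p = 0.0116). The libraries did not overlap for either gene. The call of Igf2r was lost without any 1 of the 4 libraries (adjusted p of 0.0743 without control library 1, 0.0707 without control library 2, 0.271 without knockout library 1 and 0.165 without knockout library 2). The other marker genes of the system were not called. Sqstm1 was at 222 and 214 CPM in the resting knockout (0.10 ± 0.0445, adjusted p = 0.185), Lamp1 at 233 and 222 CPM (0.00 ± 0.043) and Map1lc3b at 52.2 and 49.3 CPM (−0.01 ± 0.0636). Tfeb was at 14.3 and 15.4 CPM (0.05 ± 0.116) and Tfe3 at 34.7 and 32.1 CPM (−0.07 ± 0.07).

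In activated cells, the knockout had more transcript of Sqstm1, Gabarap, Atp6v1h and Atp6v0d1, and less of Igf2r. Of the 49 tested members, 12 were higher and 4 lower, against 10.8% and 8.78% of all tested genes. The members' median log2 fold change was 0.04, and that of all genes 0.017. Calls of 5 members held under every alternative: Sqstm1, Gabarap, Atp6v1h, Atp6v0d1 and Igf2r. The number called was 8 without activated control library 1, 9 without activated knockout library 1 and 7 with DESeq2.

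Sqstm1 was at 160 and 171 CPM in activated controls and 267 and 277 CPM in the activated knockout, a log2 fold change of 0.71 ± 0.0445 (adjusted p = 3.6e-11). Gabarap, whose product binds cargo receptors such as p62, was at 141 and 151 against 181 and 204 CPM (0.39 ± 0.0547, adjusted p = 1.04e-05). Both genes had every knockout library above every control library. Gabarapl1 (0.19 ± 0.0583) was also higher, while Gabarapl2 (0.25 ± 0.115, adjusted p = 0.138) and Map1lc3b, at 24.4 and 26.7 against 27.4 and 25.6 CPM (0.06 ± 0.0812), were not called. Among genes of initiation and conjugation, Wipi1 was at 4.00 and 3.69 against 6.93 and 5.6 CPM (0.74 ± 0.182, adjusted p = 0.00459), and Atg5, part of the enzyme complex that attaches ATG8 proteins to lipid, at 36.0 and 35.8 against 43.7 and 43.8 CPM (0.28 ± 0.0764). Atg16l1, the membrane-targeting part of that complex, went the other way, at 61.0 and 50.8 against 47.7 and 43.9 CPM (−0.28 ± 0.0762). Wipi1 was not called by DESeq2 (0.71, adjusted p = 0.0828) or without knockout library 1 (0.54, adjusted p = 0.167). Atg16l1 was not called by DESeq2 (−0.29, adjusted p = 0.0581), without control library 1 (−0.14, adjusted p = 0.356) or without knockout library 2 (−0.23, adjusted p = 0.0926). Atg5 lost its call without control library 1 (0.29, adjusted p = 0.0542), control library 2 (0.27, adjusted p = 0.0544) or knockout library 1 (0.28, adjusted p = 0.0753), and Gabarapl1 without control library 1 (0.12, adjusted p = 0.294), knockout library 1 (0.18, adjusted p = 0.149) or knockout library 2 (0.20, adjusted p = 0.0656).

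Of the 15 V-ATPase genes, 3 (20%) were higher in the activated knockout, against 10.8% of all tested genes. Atp6v1h, the regulatory V1 subunit that couples both sectors, was at 48.2 and 45.6 against 60.0 and 61.2 CPM (0.37 ± 0.0641, adjusted p = 0.000152). Atp6v0d1 was at 77.5 and 80 against 92.8 and 93.8 CPM (0.24 ± 0.0483, adjusted p = 0.000567), and Atp6v1b2, a non-catalytic V1 subunit, at 125 and 128 against 140 and 137 CPM (0.13 ± 0.0447, adjusted p = 0.0365). These libraries did not overlap, although Atp6v1b2 lost its call under 8 of 11 alternatives, among them each left-out library of the comparison (0.11 to 0.14, adjusted p from 0.0789 to 0.256).

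Lysosomal genes went both ways in the activated knockout, with 3 of 19 higher and 3 lower. Each was 15.8% of the group, against 10.8% higher and 8.78% lower over all tested genes. Igf2r was at 437 and 439 CPM in controls and 328 and 323 CPM in the knockout (−0.43 ± 0.0446, adjusted p = 1.49e-07). Its antisense neighbour Airn, which overlaps it on the opposite strand, stood between 1.94 and 12.1 CPM over all libraries, and the strand setting of the counting is not given in the sources used here. Gla was at 18.2 and 18.6 against 13.4 and 14.3 CPM (−0.42 ± 0.107) and Gusb at 123 and 128 against 110 and 110 CPM (−0.19 ± 0.0475). The groups did not overlap for any of these genes, but DESeq2 called neither Gla nor Gusb (adjusted p of 0.116 and 0.0612). Gla also lost its call without knockout library 1 (−0.37, adjusted p = 0.0925) and Gusb without control library 2 (−0.17, adjusted p = 0.0527). Ctss (0.36 ± 0.094, 15.8 and 17.2 against 20.9 and 21.7 CPM), Psap (0.16 ± 0.0436) and the low Ctsl (0.64 ± 0.196, 3.33 and 3.78 against 5.44 and 5.70 CPM) were higher. Each lost its call without control library 1 (0.30, 0.14 and 0.55, with adjusted p of 0.0994, 0.0994 and 0.163). Psap also lost it without knockout library 1 (0.14, adjusted p = 0.126), and Ctsl without any 1 of the 4 libraries (0.55 to 0.72, adjusted p from 0.0501 to 0.163). Tfe3 was at 40.8 and 40.9 against 46.5 and 48.2 CPM (0.21 ± 0.0637, adjusted p = 0.0213), a call lost without any 1 library of the comparison (0.18 to 0.23, adjusted p from 0.0707 to 0.114). Tfeb, at 7.83 and 6.13 against 6.68 and 7.43 CPM (0.00 ± 0.156, adjusted p = 0.992), and Lamp1, at 187 and 190 against 180 and 183 CPM (−0.06 ± 0.0443, adjusted p = 0.423), were not called.

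**Figure D3:**
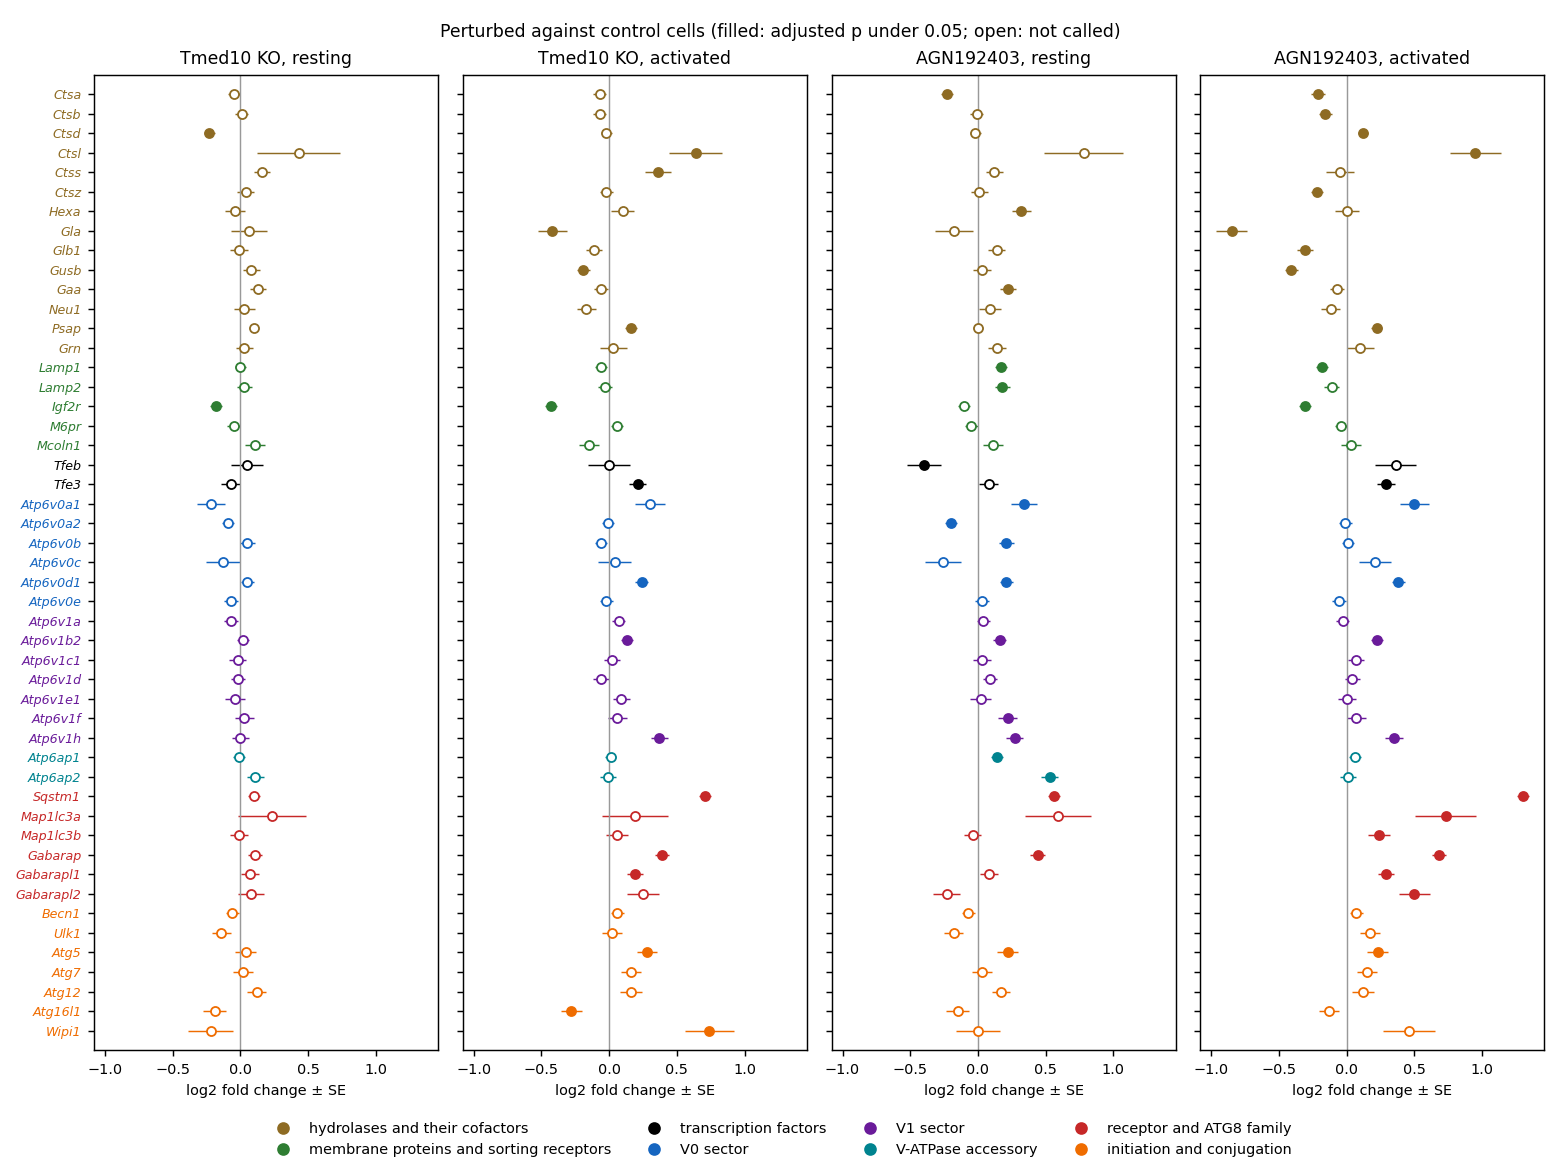
Log2 fold change with its standard error for the 49 tested members in 4 comparisons, Tmed10 knockout or AGN192403 against control vehicle cells, resting and activated (n = 2 libraries a group, filled at an adjusted p under 0.05). Few points are filled for the resting knockout, and Sqstm1 reaches 0.71 in the activated knockout and 1.30 in activated AGN192403 cells; both drug and knockout are set against the same control libraries of each state.

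AGN192403 at rest asks what the ligand does to cells that were not restimulated. Sqstm1, Gabarap, Atp6ap2 and Atp6v0d1 were higher, and Ctsa and Atp6v0a2 were lower. Of the 49 tested members, 15 were higher and 3 lower, against 11.6% and 13.7% of all tested genes, with a median log2 fold change of 0.08 against −0.00633 for all genes. Calls of 6 members held under every alternative: Sqstm1, Gabarap, Atp6ap2, Atp6v0d1, Ctsa and Atp6v0a2. The number called was 10 without resting AGN192403 library 2 and 8 with DESeq2.

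Sqstm1 was at 201 and 205 CPM in vehicle and 296 and 300 CPM in AGN192403 (0.56 ± 0.0438, adjusted p = 5.12e-10), and Gabarap at 187 and 194 against 259 and 256 CPM (0.44 ± 0.0525, adjusted p = 6.45e-07). No library of one group lay within the range of the other for either gene. Atg5 was higher as well (0.22 ± 0.0759), though not by DESeq2 (adjusted p = 0.233), without vehicle library 1 (0.16, adjusted p = 0.24) or without AGN192403 library 2 (0.13, adjusted p = 0.442). Map1lc3b, at 48.9 and 53.2 against 49.9 and 50 CPM (−0.04 ± 0.0645), and Gabarapl2 (−0.23 ± 0.1, adjusted p = 0.102) were not called.

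Of the 15 V-ATPase genes, 8 (53.3%) were higher with AGN192403 at rest and 1 (6.67%) was lower. Over all tested genes the shares were 11.6% and 13.7%. Atp6ap2, the accessory subunit also known as the prorenin receptor, was at 53.0 and 52.6 against 74.1 and 77.7 CPM (0.53 ± 0.0614, adjusted p = 3.74e-07). Atp6v0d1 was at 91.1 and 91.4 against 104 and 106 CPM (0.21 ± 0.0471), and Atp6v1h at 57.3 and 61.4 against 69.1 and 74.0 CPM (0.27 ± 0.0608). These 3 genes had every treated library above every vehicle library. The call of Atp6v1h was lost without AGN192403 library 2 (0.22, adjusted p = 0.0708). Atp6v0a1, one of the a-subunit genes of V0, was at 33.8 and 26.4 against 40.8 and 35.1 CPM (0.34 ± 0.0969), with 0.15 without vehicle library 2 (adjusted p = 0.362) and 0.24 without AGN192403 library 1 (adjusted p = 0.136). DESeq2 did not call Atp6v0a1 (0.32, adjusted p = 0.0886). The remaining calls were Atp6v0b (0.21), Atp6v1f (0.22, with 55.9 and 52.4 against 64.8 and 61.3 CPM), Atp6v1b2 (0.16) and Atp6ap1 (0.14), none of which DESeq2 called. Without vehicle library 2 they stood at 0.20, 0.17, 0.15 and 0.13 (adjusted p of 0.052, 0.202, 0.0773 and 0.122). Without AGN192403 library 2, Atp6v0b, Atp6v1b2 and Atp6ap1 had adjusted p of 0.0544, 0.179 and 0.28, and Atp6v1f without AGN192403 library 1 had 0.121, while Atp6ap1 without vehicle library 1 had 0.0743. Atp6v0a2, an alternative form of the V0 a-subunit, was lower, at 180 and 176 against 150 and 158 CPM (−0.20 ± 0.0448, adjusted p = 0.00125). Of the 11 other V-ATPase genes tested, 4 were higher and 1, Tcirg1, was lower. Tcirg1 was at 95.6 and 93.1 against 71.8 and 73.4 CPM (−0.37 ± 0.0593, adjusted p = 3.14e-05 by edgeR).

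In the lysosomal membrane, Lamp1 was at 228 and 227 against 253 and 258 CPM (0.17 ± 0.0428) and Lamp2 at 92.2 and 95.9 against 103 and 109 CPM (0.18 ± 0.0528). The hydrolases Hexa, the alpha subunit of beta-hexosaminidase, at 34.5 and 34.2 against 42.6 and 43.1 CPM (0.32 ± 0.0692), and Gaa, at 56.4 and 53.6 against 66.4 and 62.2 CPM (0.22 ± 0.0594), were higher. Ctsa was lower, at 179 and 186 against 159 and 153 CPM (−0.23 ± 0.0445). Tfeb was at 15.2 and 13.5 against 11.3 and 10.4 CPM (−0.40 ± 0.126, adjusted p = 0.0194), though not by DESeq2 (−0.42, adjusted p = 0.144), without vehicle library 1 (−0.32, adjusted p = 0.148) or without AGN192403 library 2 (−0.33, adjusted p = 0.209). Tfe3, at 34.4 and 36.1 against 37 and 37.5 CPM (0.08 ± 0.0696, adjusted p = 0.46), and Igf2r, at 487 and 492 against 458 and 455 CPM (−0.10 ± 0.0439, adjusted p = 0.101), were not called. Without AGN192403 library 2, Lamp1 (0.16, adjusted p = 0.0629) and Lamp2 (0.14, adjusted p = 0.226) were not called, nor was Lamp2 without vehicle library 1 (0.15, adjusted p = 0.114). Gaa was not called without vehicle library 2 (0.18, adjusted p = 0.0999) or AGN192403 library 1 (0.18, adjusted p = 0.0791), and DESeq2 called neither Hexa (adjusted p = 0.0504) nor Gaa (adjusted p = 0.0782).

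In activated cells, AGN192403 raised all 6 tested genes of the cargo receptor and ATG8 group. Of the 19 lysosomal members it lowered 8 and raised 3, while 16 of the 52 other lysosomal genes tested were higher and 7 lower. Across the 49 tested members, 15 were higher and 8 lower, against 16.4% and 18.3% of all tested genes. The members' median log2 fold change was 0.07, and that of all genes −0.00974. Of these 23 calls, 17 held under every alternative, and the number called ran from 20 to 24 when any 1 library was left out.

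Sqstm1 showed the largest rise among members, with 160 and 171 CPM in vehicle and 400 and 417 CPM in AGN192403, a log2 fold change of 1.30 ± 0.0437 (adjusted p = 3.48e-17), or 2.47-fold. Gabarap was at 141 and 151 against 226 and 243 CPM (0.68 ± 0.0538, adjusted p = 2.02e-10). Gabarapl2 was at 10.7 and 10.5 against 16.2 and 14.0 CPM (0.50 ± 0.112, adjusted p = 0.000937), and Gabarapl1 at 87.1 and 96.5 against 107 and 117 CPM (0.29 ± 0.058). For each of these genes the treated libraries lay above both vehicle libraries. The LC3 genes were closer to the threshold. Map1lc3b was at 24.4 and 26.7 against 29.6 and 30.6 CPM (0.24 ± 0.0798, adjusted p = 0.0214), but not called by DESeq2 (adjusted p = 0.131), without vehicle library 1 (0.17, adjusted p = 0.21) or without AGN192403 library 2 (0.22, adjusted p = 0.124). Map1lc3a, at 3.08 and 2.94 against 5 and 5 CPM (0.73 ± 0.224, adjusted p = 0.0127), was not called by DESeq2 (adjusted p = 0.109) or without either vehicle library (0.76 and 0.72, adjusted p of 0.05 and 0.0614). The summed level of the 6 genes was 443 ± 23 CPM in vehicle and 805 ± 30.4 CPM in AGN192403 (SD, n = 2). Of initiation and conjugation genes, Atg5 was called (0.23 ± 0.0774), with values of 0.23 and 0.24 without vehicle library 1 or 2 (adjusted p of 0.09 and 0.0651) and 0.11 without AGN192403 library 2 (adjusted p = 0.423).

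Of the 15 V-ATPase genes, 4 (26.7%) were higher and 0 lower by edgeR with AGN192403 in activated cells. Over all tested genes the shares were 16.4% and 18.3%. The 4 higher genes were Atp6v0a1 at 18.8 and 21.3 against 29.8 and 27.2 CPM (0.50 ± 0.109), Atp6v0d1 at 77.5 and 80 against 103 and 102 CPM (0.38 ± 0.0478), Atp6v1h at 48.2 and 45.6 against 57.7 and 62 CPM (0.35 ± 0.0645), and Atp6v1b2 (0.22 ± 0.0445). All 4 held under every alternative and none of their libraries overlapped.

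Of the 14 hydrolases and cofactors, 6 (42.9%) were lower and 3 (21.4%) higher with AGN192403 in activated cells. Over all tested genes the shares were 18.3% and 16.4%. Gla was at 18.2 and 18.6 against 9.06 and 11.2 CPM (−0.85 ± 0.115, adjusted p = 1.72e-06), and Gusb at 123 and 128 against 90.6 and 97.5 CPM (−0.41 ± 0.0486, adjusted p = 1.91e-07). Glb1, the beta-galactosidase gene, was at 68.7 and 67.0 against 54.5 and 55.1 CPM (−0.31 ± 0.0593). It overlaps Tmppe on the same strand, at 44.3 to 60.2 CPM, while Ctsz and Ctsb overlap Nelfcd (32.4 to 48.7 CPM) and Fdft1 (55.7 to 125 CPM) on the opposite strand. Ctsz was at 167 and 172 against 142 and 150 CPM (−0.22 ± 0.0458), and Ctsa at 96.1 and 98.9 against 81.3 and 86.7 CPM (−0.21 ± 0.051). Ctsb, of cathepsin B, at 155 and 158 against 134 and 146 CPM (−0.16 ± 0.0476), was lower too, and the value of Ctsb was −0.09 without AGN192403 library 1 (adjusted p = 0.201) and −0.13 without vehicle library 2 (adjusted p = 0.129). Ctsl at 3.33 and 3.78 against 6.98 and 6.76 CPM (0.95 ± 0.189), Psap (0.22 ± 0.0436) and Ctsd (0.12 ± 0.0399) were higher. Ctsd lost its call without vehicle library 1 (0.11, adjusted p = 0.116) and without AGN192403 library 2 (0.06, adjusted p = 0.343).

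Among membrane proteins in activated cells, Igf2r was at 437 and 439 CPM in vehicle and 374 and 332 CPM in AGN192403 (−0.31 ± 0.0445, adjusted p = 3.49e-06). Lamp1 was at 187 and 190 against 160 and 173 CPM (−0.18 ± 0.0447, adjusted p = 0.00256), a call lost without AGN192403 library 1 (−0.12, adjusted p = 0.0783). The vehicle libraries lay above both treated libraries for each. Tfe3 was higher, at 40.8 and 40.9 against 48.5 and 51.0 CPM (0.29 ± 0.0634, adjusted p = 0.0008). Tfeb was not called, at 7.83 and 6.13 against 9.63 and 8.45 CPM (0.36 ± 0.149, adjusted p = 0.0629), and its value was 0.55 without vehicle library 1 (adjusted p = 0.0279) and 0.22 without vehicle library 2 (adjusted p = 0.4).

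**Figure D4:**
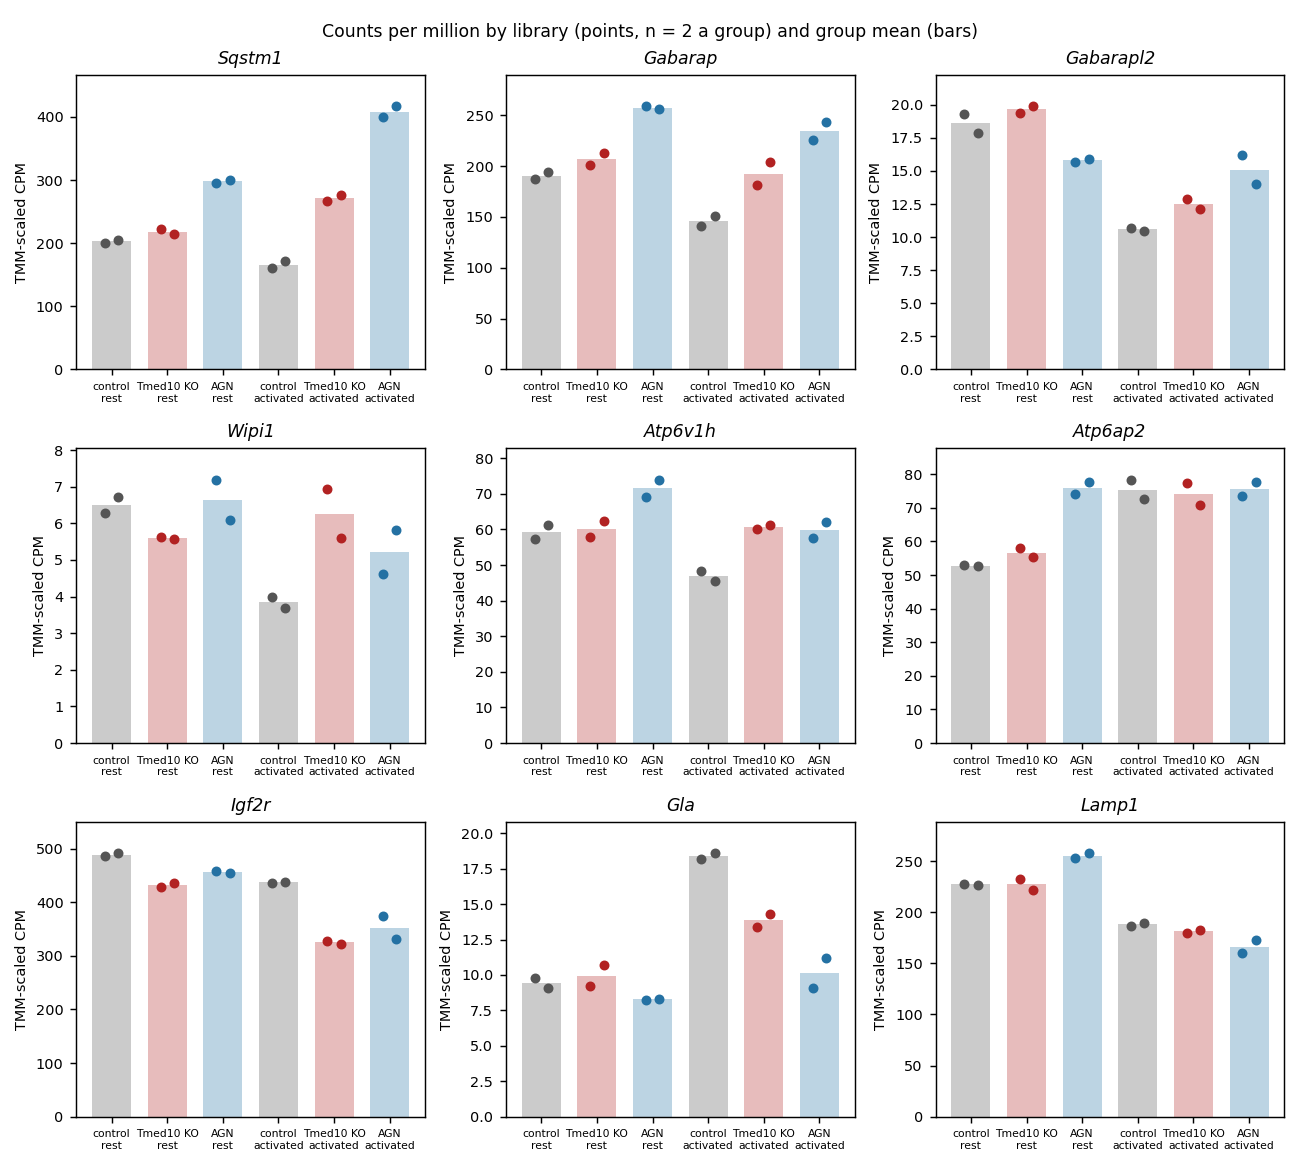
TMM-scaled CPM of 9 members in each of the 12 libraries (points), with the mean of 2 libraries per group as bars from 0. Sqstm1 stands at 400 and 417 CPM in activated AGN192403 cells against 160 and 171 CPM in activated controls, while Gla and Igf2r are lower than the activated controls in both perturbed groups.

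Over the 4 comparisons with control cells, 35 of the 49 tested members were called at least once. The 14 without a call were Neu1, Grn, M6pr, Mcoln1, Atp6v0c, Atp6v0e, Atp6v1a, Atp6v1c1, Atp6v1d, Atp6v1e1, Becn1, Ulk1, Atg7 and Atg12, so the catalytic V1 subunit Atp6v1a, the initiating kinase gene Ulk1 and the lipid kinase cofactor gene Becn1 are among them. AGN192403 raised 7 members in both states and lowered 1, Ctsa, in both, and Lamp1 was called in opposite directions. In activated cells, 10 of the 12 members higher in the knockout were also higher among the 15 raised by AGN192403, and 3 members were lower in both. These comparisons share their control libraries, and the matching shares over all tested genes were not counted. The counts in this paragraph are therefore no result about the members as a set, and the values are best read side by side. Sqstm1 had 0.71 in the knockout and 1.30 with AGN192403, Gabarap 0.39 and 0.68, Atp6v1h 0.37 and 0.35, Atp6v0d1 0.24 and 0.38, Igf2r −0.43 and −0.31, and Gla −0.42 and −0.85. Of the 8 genes with a CLEAR core, 1 (Atp6v0d1) was higher and 2 (Igf2r and Gla) lower in the activated knockout. Over all tested genes the shares were 10.8% and 8.78%. Activated AGN192403 cells had 2 higher (Atp6v0d1 and Ctsd) and 3 lower (Igf2r, Gla and Ctsa), against 16.4% and 18.3%. The resting knockout had 0 higher and 2 lower, against 2.81% and 4.63%. Resting AGN192403 cells had 1 higher and 1 lower, against 11.6% and 13.7%. So few genes allow no conclusion about those with the core.

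Knockout and AGN192403 cells were also compared directly, which needs no control library but differs in guide and ligand at once. At rest, 3 members were higher and 13 lower in the knockout, against 8.83% and 7.78% of all tested genes, with a median of −0.09 against −0.00141 for all genes. With median-ratio size factors 5 were higher and 8 lower, with DESeq2 8 were called in all, and 7 to 9 were called without any 1 library. Sqstm1 was at 222 and 214 CPM in the resting knockout against 296 and 300 CPM with AGN192403 (−0.45 ± 0.0434, adjusted p = 2.92e-08), and Atp6ap2 at 58.1 and 55.3 against 74.1 and 77.7 CPM (−0.42 ± 0.0598). V-ATPase genes gave 7 of the 13 lower calls, with Atp6v0a1 at −0.56 ± 0.0983. That was 46.7% of the 15 V-ATPase genes, against 7.78% of all tested genes. The knockout was lower in Lamp1 (−0.17 ± 0.0427) and higher in Tfeb (0.45 ± 0.123, adjusted p = 0.0113), and did not differ by the test in Igf2r (−0.08, adjusted p = 0.252), Tfe3 (−0.15, adjusted p = 0.164) or Map1lc3b (0.03, adjusted p = 0.815). Lamp1 lost its call without AGN192403 library 1 (−0.15, adjusted p = 0.0706), AGN192403 library 2 (−0.12, adjusted p = 0.191) or knockout library 2 (−0.10, adjusted p = 0.245), and Tfeb without AGN192403 library 2 (0.41, adjusted p = 0.133). The 5 V-ATPase genes other than Atp6v0a1 and Atp6ap2 were not called without AGN192403 library 2 (−0.19 to −0.07, adjusted p from 0.162 to 0.515).

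In activated cells, 6 members were higher and 4 lower in the knockout than with AGN192403, against 13% and 7.34% of all tested genes, with a median of −0.05 against 0.0242. Scaling by library totals alone turned this to 4 higher and 8 lower, 6 were called with DESeq2, 3 without AGN192403 library 1 and 5 without knockout library 2. Sqstm1 was at 267 and 277 against 400 and 417 CPM (−0.59 ± 0.042, adjusted p = 2.98e-10) and Gabarap at 181 and 204 against 226 and 243 CPM (−0.30 ± 0.0525, adjusted p = 0.000189). Calls of Sqstm1 and Gabarap held under every alternative. All 6 higher genes were hydrolases: Gla (0.43 ± 0.12), Ctss (0.41 ± 0.0945), Gusb (0.23 ± 0.0493), Glb1 (0.20 ± 0.0597), Ctsz (0.19 ± 0.0458) and Ctsa (0.14 ± 0.0511), and without AGN192403 library 1 they ranged from 0.08 to 0.32 with no call (adjusted p from 0.0524 to 0.435). Igf2r (−0.11 ± 0.045, adjusted p = 0.0794), Lamp1 (0.12 ± 0.0448, adjusted p = 0.0549), Tfeb (−0.37 ± 0.148, adjusted p = 0.0828), Tfe3 (−0.08 ± 0.0613, adjusted p = 0.409) and Map1lc3b (−0.18 ± 0.0783, adjusted p = 0.122) were not called. Without AGN192403 library 2, Igf2r (−0.20, adjusted p = 0.00109) and Lamp1 (0.18, adjusted p = 0.00951) were called.

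The response to activation was then compared between perturbed and control cells, as the difference of the log2 changes. The activation response differed with AGN192403 in 17 of the 49 tested members, 7 upwards and 10 downwards, against 8.62% and 11.1% of all tested genes. In the knockout it differed in 8 members, 6 upwards and 2 downwards, against 3.07% and 1.89%. Median differences were 0.01 with AGN192403 and 0.06 in the knockout, and those of all genes −0.0155 and 0.015. The change of Sqstm1 on activation, a fall in control cells, was higher by 0.75 ± 0.0618 with AGN192403 (adjusted p = 7.73e-09) and by 0.61 ± 0.0629 in the knockout (adjusted p = 1.02e-06). Sqstm1 was the 1 knockout call that held under every alternative. Wipi1 differed by 0.96 ± 0.248 and Atp6v0a1 by 0.52 ± 0.151 in the knockout, and lost their calls without 6 and 7 of the 8 single libraries (adjusted p up to 0.231 and 0.292). With AGN192403, 9 of the 10 downward differences were lysosomal genes, led by Gla (−0.67 ± 0.182), Glb1 (−0.45 ± 0.0863) and Gusb (−0.45 ± 0.0798), and the other was Atp6ap2 (−0.52 ± 0.084). Of these 9, Glb1, Gusb and Lamp1 held their calls under every alternative, while Hexa lost its call under 13 of 15. Among the 52 other lysosomal genes tested, the same difference was higher in 8 and lower in 5, with a median of 0.09. Atp6ap2 was raised by activation alone and by AGN192403 at rest, and stood at 78.4 and 72.5 CPM in activated vehicle and 73.5 and 77.7 CPM in activated AGN192403 cells, which overlap. Lamp1 differed by −0.35 ± 0.0619 (adjusted p = 0.000224), Tfeb by 0.77 ± 0.195 (adjusted p = 0.00615) and Gabarapl2 by 0.73 ± 0.151 (adjusted p = 0.00104), and these 3 held under every alternative. Igf2r fell further on activation than in control cells in both, with differences of −0.21 ± 0.0625 with AGN192403 and −0.25 ± 0.0626 in the knockout. Map1lc3b (0.28, adjusted p = 0.0605, and 0.07, adjusted p = 0.817) and Tfe3 (0.21, adjusted p = 0.128, and 0.28, adjusted p = 0.105) were not called, although with AGN192403 Map1lc3b was called without resting vehicle library 1 (0.33, adjusted p = 0.0402) or activated vehicle library 2 (0.36, adjusted p = 0.0439).

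**Figure D5:**
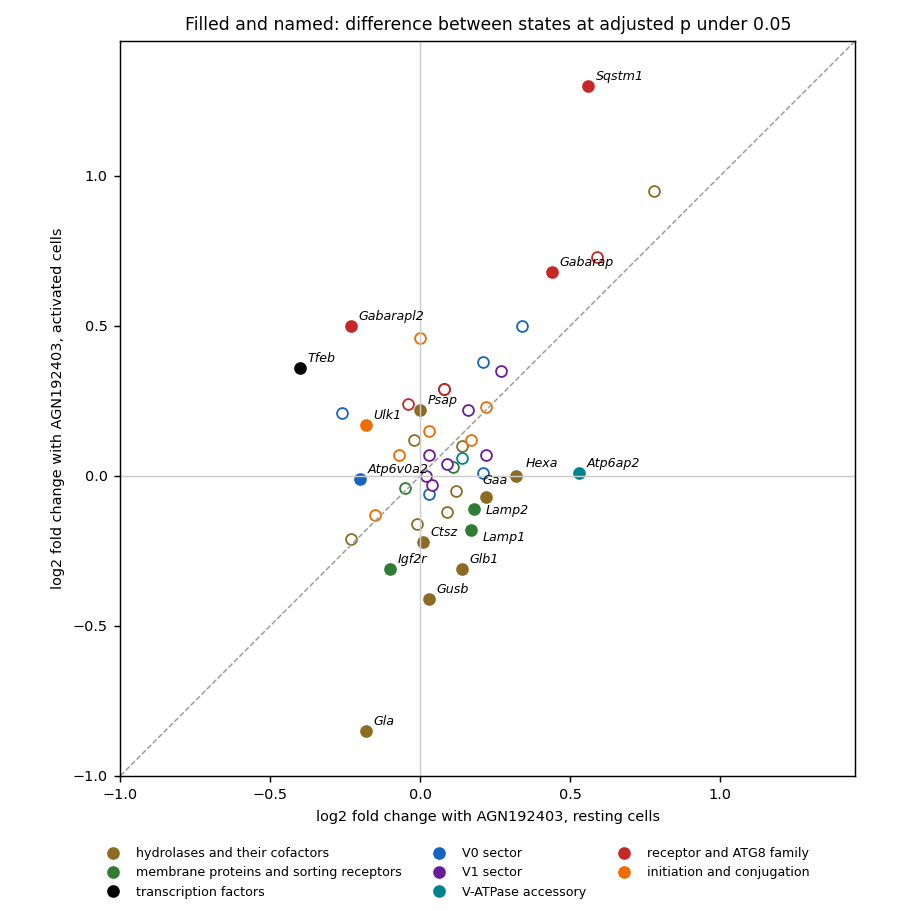
Log2 fold change with AGN192403 in resting (horizontal) and activated cells (vertical) for the 49 tested members, coloured by role, with the dashed line marking equal change. The 17 members whose change differs between states at an adjusted p under 0.05 are filled and named; Sqstm1, Gabarapl2 and Tfeb lie above the line and Gla, Atp6ap2 and Lamp1 below it.

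Other genes of these pathways were read from 4 lists, of 54 lysosomal, 19 V-ATPase, 40 autophagy and 37 nutrient-sensing genes, of which 52, 11, 40 and 36 were tested. On activation, 36.4% of all tested genes were higher and 37.4% lower. The other lysosomal genes gave 8 higher and 37 lower, with a median of −0.73. Cd63 led the rises (3.68), from a very low mean of 0.427 CPM at rest to 5.64 CPM. Mcoln2 led the falls (−2.90). Other autophagy genes gave 6 higher and 21 lower, among them Tecpr1 (−2.86) and Calcoco1 (−1.95), other V-ATPase genes 4 and 3, and nutrient-sensing genes 9 and 17. In activated AGN192403 cells, against 16.4% higher and 18.3% lower over all tested genes, other autophagy genes gave 14 higher and 3 lower with a median of 0.15, such as the receptor gene Calcoco1 (0.98 ± 0.0967) and Atg13 of the ULK1 complex (0.56 ± 0.0615). Other lysosomal genes gave 16 and 7, led by Scpep1, a serine carboxypeptidase gene (1.36 ± 0.0664), other V-ATPase genes 4 and 2, and nutrient-sensing genes 7 and 5. In the activated knockout, against 10.8% and 8.78% over all tested genes, the counts were 8 higher and 1 lower for autophagy, with Calcoco1 at 0.68 ± 0.1 and Atg13 at 0.41 ± 0.0623. They were 6 and 4 for lysosome, 1 and 0 for V-ATPase, and 3 and 5 for nutrient sensing, where Sesn2, an amino acid sensor of mTORC1, was higher (0.37 ± 0.0463) and Mtor lower (−0.35 ± 0.0488). At rest AGN192403, against 11.6% and 13.7% over all tested genes, gave 10 and 4 for autophagy and 6 and 10 for lysosome. It gave 4 and 1 for V-ATPase and 7 and 3 for nutrient sensing. There Rragd, a Rag GTPase gene, was higher at a low level, with means of 2.95 CPM in vehicle and 5.45 CPM in AGN192403 (0.87 ± 0.192). The resting knockout, against 2.81% and 4.63%, gave at most 3 calls in either direction in any list.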

How the data were processed

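In all, 12 libraries of CD8 T cell RNA were sequenced, and the deposited table holds raw counts of reads per gene, for which the authors used the mouse genome GRCm38 (mm10). Per the submitters' processing notes the tools were STAR 2.6.0c and HTSeq, while the study's methods name another STAR version, and the strand setting of the counting is not given in the sources used here. Of 46603 identifiers, 46005 carried a symbol in GENCODE M21 and the other 598 held 0.0709% of counts.

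Genes were kept by filterByExpr (13167 genes, 99.9% of counts) and scaled by TMM (factors 0.976 to 1.02). One model of the 6 groups was fitted with edgeR 4.0.16 (R 4.3.3, limma 3.58.1), with 6 residual degrees of freedom and a common biological coefficient of variation of 0.0306. Contrasts were tested by the quasi-likelihood F-test with Benjamini-Hochberg adjustment over all tested genes, and a gene was called at an adjusted p under 0.05. Values of single libraries are TMM-scaled CPM, and levels between genes were divided by the union exon length. The script was tested on simulated data. The members and all gene lists were chosen with earlier results of these data known. All members could be named, with library values for up to 8 called members of largest rise and 8 of largest fall in each contrast with control cells and for Lamp1, Igf2r, Tfeb, Tfe3, Sqstm1 and Map1lc3b, and up to 4 called genes by size for each list of other pathway genes.

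Alternatives were no filter, a filter of 5 CPM in 2 libraries, median-ratio size factors, library totals, only the libraries compared, DESeq2 1.42.0, a replicate block and leaving out each library, where the lone library left in a group is assumed to vary like the others. Replicate numbers are shared by the groups. Replicate differences correlated above 0.1 in 3 of 15 pairs of groups (range −0.00507 to 0.239), so replicates were not treated as pairs. All 3 joined control-guide groups: resting with activated vehicle cells (0.189), and activated AGN192403 cells with resting (0.239) and activated vehicle cells (0.213). Depth was 9089350 to 16481840 counts per library.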

Additional observations from a re-analysis of the deposited data

Results flagged for a closer look

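The activation response of 8 members in the Tmed10 knockout and of 17 with AGN192403 differed from that of control cells by a test of the interaction itself (edgeR's quasi-likelihood test), as a difference of log2 changes, and Sqstm1, Gabarap, Gusb and Igf2r were among both. In the knockout these were Wipi1 (0.96), Sqstm1 (0.61), Atp6v0a1 (0.52), Atp6v1h (0.36), Gabarap (0.27) and Ctsd (0.21), higher, and Gusb (−0.27) and Igf2r (−0.25), lower. Their adjusted p ran from 1.02e-06 for Sqstm1 to 0.0437 for Atp6v0a1. All but Sqstm1 lost the call under at least 1 alternative, and Gabarap was at 0.16 without activated knockout library 2 (adjusted p = 0.354).

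With AGN192403 the difference was positive for Tfeb (0.77), Sqstm1 (0.75), Gabarapl2 (0.73), Ulk1 (0.34), Gabarap (0.24), Psap (0.21) and Atp6v0a2 (0.20). It was negative for Gla (−0.67), Atp6ap2 (−0.52), Gusb (−0.45), Glb1 (−0.45), Lamp1 (−0.35), Hexa (−0.32), Gaa (−0.30), Lamp2 (−0.29), Ctsz (−0.23) and Igf2r (−0.21). A positive difference can be a smaller fall. Tfeb and Psap fell on activation in vehicle (−1.03 and −1.67). Their means with AGN192403 also went down on activation, from 10.8 to 9.04 CPM and from 459 to 167 CPM. Adjusted p ran from 7.73e-09 for Sqstm1 to 0.0478 for Hexa, and Igf2r was at −0.13 without activated AGN192403 library 2 (adjusted p = 0.103). Calls of Tfeb, Sqstm1, Gabarapl2, Atp6ap2, Gusb, Glb1 and Lamp1 held under every alternative.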

How the results depend on the processing

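Of 94 named results that were called, 54 kept the call under every alternative, 40 lost it under at least 1, and 0 changed sign. Of 150 calls of members over the 9 contrasts, 82 were kept under every alternative. With DESeq2, calls numbered 7 instead of 16 for the activated knockout, 8 instead of 18 for resting AGN192403, 8 instead of 16 and 6 instead of 10 for knockout against AGN192403 resting and activated, and 2 instead of 8 and 10 instead of 17 for the activation response in the knockout and with AGN192403. Median-ratio size factors left 5 calls (3 higher, 2 lower) instead of 6 and 2 for the knockout response, and library totals gave 1 higher and 2 lower for the resting knockout. Leaving out 1 library gave 1 to 2 calls for the resting knockout, 8 to 11 for the activated knockout, 10 to 17 for resting AGN192403, 7 to 9 and 3 to 15 for knockout against AGN192403 resting and activated, and 2 to 5 and 11 to 17 for the responses in the knockout and with AGN192403. The knockout response had 2 calls without resting control library 2, either activated control library or either resting knockout library, 3 and 4 without activated knockout libraries 1 and 2, and 5 without resting control library 1. The cause of these changes was not tested, beyond the fewer libraries in a group of 2.

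Among named results, signs changed for values that were not called. In the resting knockout, Lamp1 was at 0.00 under both a filter of 5 CPM and a fit of the compared libraries and between −0.01 and 0.07 without 1 library, Map1lc3b at 0.01 with either other scaling and DESeq2 and between −0.06 and 0.06, Tfe3 between −0.11 and 0.01, and Tfeb between −0.04 and 0.14. In the activated knockout, Map1lc3b lay between 0.00 and 0.12 and Tfeb between −0.18 and 0.19, at 0.03 with no filter. Map1lc3b lay between −0.09 and 0.03 in resting AGN192403 cells, and for the knockout response Map1lc3b lay between −0.02 and 0.13 and Tfeb between −0.26 and 0.13.

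With the replicate block, calls numbered 40 for activation, 2 and 17 for the resting and activated knockout, 20 and 23 for AGN192403, 18 and 12 for knockout against AGN192403, and 8 and 21 for the responses, each within 1.5 times of the count without it. Of 26 named results not called, 6 gained a call under at least 1 alternative, among them Igf2r (−0.11) and Lamp1 (0.12) in activated knockout against AGN192403 cells with the replicate block. Mitf, which was not tested, had 2 counts in its lowest library and 13 in its highest.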
